A study of Mus musculus with 12 samples.

Results

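The BCL2 family and the death receptors are 2 arms of the machinery that decides whether a cell dies by apoptosis, and 10 of their genes were followed here in mouse liver after an overdose of acetaminophen (APAP). The 10 genes, Mcl1, Bcl2l1, Bcl2l11, Bbc3, Pmaip1, Bax, Bid, Fas, Tnfrsf10b and Tnfrsf12a, were taken by gene symbol from a table of 45777 genes, and each symbol had 1 row. The table came from RNA sequencing of whole liver from 12 male C57BL/6 mice, 3 in each of 4 groups. Wild-type (WT) mice and mice labelled as whole-body Gna12 knockouts (KO) received either vehicle or a single intraperitoneal dose of 300 mg/kg APAP after an overnight fast, and the livers were taken 6 h later. Gna12 encodes the G protein subunit Gα12, and the WT mice were littermates of the KO mice. The labels gave an age of 10 to 12 weeks.

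The mitochondrial arm is run by the BCL2 proteins. Prosurvival members such as MCL1 and BCL-XL (the product of Bcl2l1) hold the effectors BAX and BAK in check, BH3-only proteins such as BIM (Bcl2l11), PUMA (Bbc3), NOXA (Pmaip1) and BID bind the prosurvival members or the effectors, and freed effectors permeabilise the outer mitochondrial membrane. The receptor arm starts at the cell surface: FAS and the TRAIL receptor encoded by Tnfrsf10b carry death domains that recruit caspase-8, whereas FN14 (Tnfrsf12a), the receptor for TWEAK, has no death domain and signals through TRAF proteins. In hepatocytes the arms are joined by BID, which caspase-8 cleaves. Hepatocytes depend on MCL1 and BCL-XL for survival, and hepatocyte death after APAP is known mainly as necrosis that follows mitochondrial damage, so the transcripts described below are levels of RNA and not of cell death.

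The libraries held 49737950 to 69566079 counts. The check of the knockout label by RNA was not passed, since Gna12 stood at 54.6 to 67.2 CPM (counts scaled to the size of the library) with vehicle and 43.5 to 48.3 CPM after APAP under the KO label, against 34.8 to 66.7 and 23.7 to 58.1 CPM in WT. The paper describes PCR of tail DNA, qRT-PCR of Gna12 in liver and immunoblots of Gα12 in WT and KO mice. It does not state whether those mice included the 12 sequenced here. Both lowest Gna12 values of the 12 livers, 23.7 CPM in WT APAP liver 1 and 34.8 CPM in WT vehicle liver 2, were in livers labelled WT, and which part of the gene was deleted is not known from the sources used here. The same livers stood apart in other genes. WT APAP liver 1 held 9395 TPM (a share of transcripts, scaled also by length) of the haemoglobin gene Hbb-bs, against 204 to 542 TPM elsewhere, and the highest summed TPM of 7 neutrophil markers, 234. WT vehicle liver 2 had a neutrophil sum of 39.6 TPM, against 1.32 and 0.828 TPM in the other WT vehicle livers. The hepatocyte markers, 5 genes including Alb, summed to 51780 to 87903 TPM over the 12 livers.

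Positions of the 10 genes are given on the mouse genome GRCm38 (RefSeq GRCm38.p6 annotation). Among the intracellular regulators, Mcl1 is at chr3:95656944-95663179, Bcl2l1 at chr2:152758732-152833803, Bcl2l11 at chr2:128126038-128162547, Bbc3 at chr7:16308398-16318334, Bax at chr7:45461695-45466903, Bid at chr6:120893119-120917062 and Pmaip1 at chr18:66458604-66465558. Among the receptors, Fas is at chr19:34290647-34327775, Tnfrsf10b at chr14:69767472-69784411 and Tnfrsf12a at chr17:23675445-23677449.

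Levels between genes were compared as TPM, which accounts for transcript length. With vehicle, Mcl1 was the most abundant of the 10 in every liver (24.4 to 43.4 TPM in 6 livers), followed by Bcl2l1 (17.5 to 28.0 TPM) and Bax (15.9 to 20.7 TPM), whose ranges overlapped. Fas (8.52 to 20.9 TPM), Tnfrsf12a (5.83 to 8.90 TPM), Bid (3.83 to 11.0 TPM) and Bbc3 (3.73 to 7.60 TPM) came next, again with overlapping ranges, and Bcl2l11 was at 1.31 to 3.18 TPM. Pmaip1 and Tnfrsf10b were close to the detection floor, at no more than 79 and 20 counts in any of the 12 livers. After APAP the order changed at the top: Tnfrsf12a, at 105 to 281 TPM in 6 livers, lay above Mcl1 (46.0 to 78.4 TPM) in every liver.

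**Figure D1:**
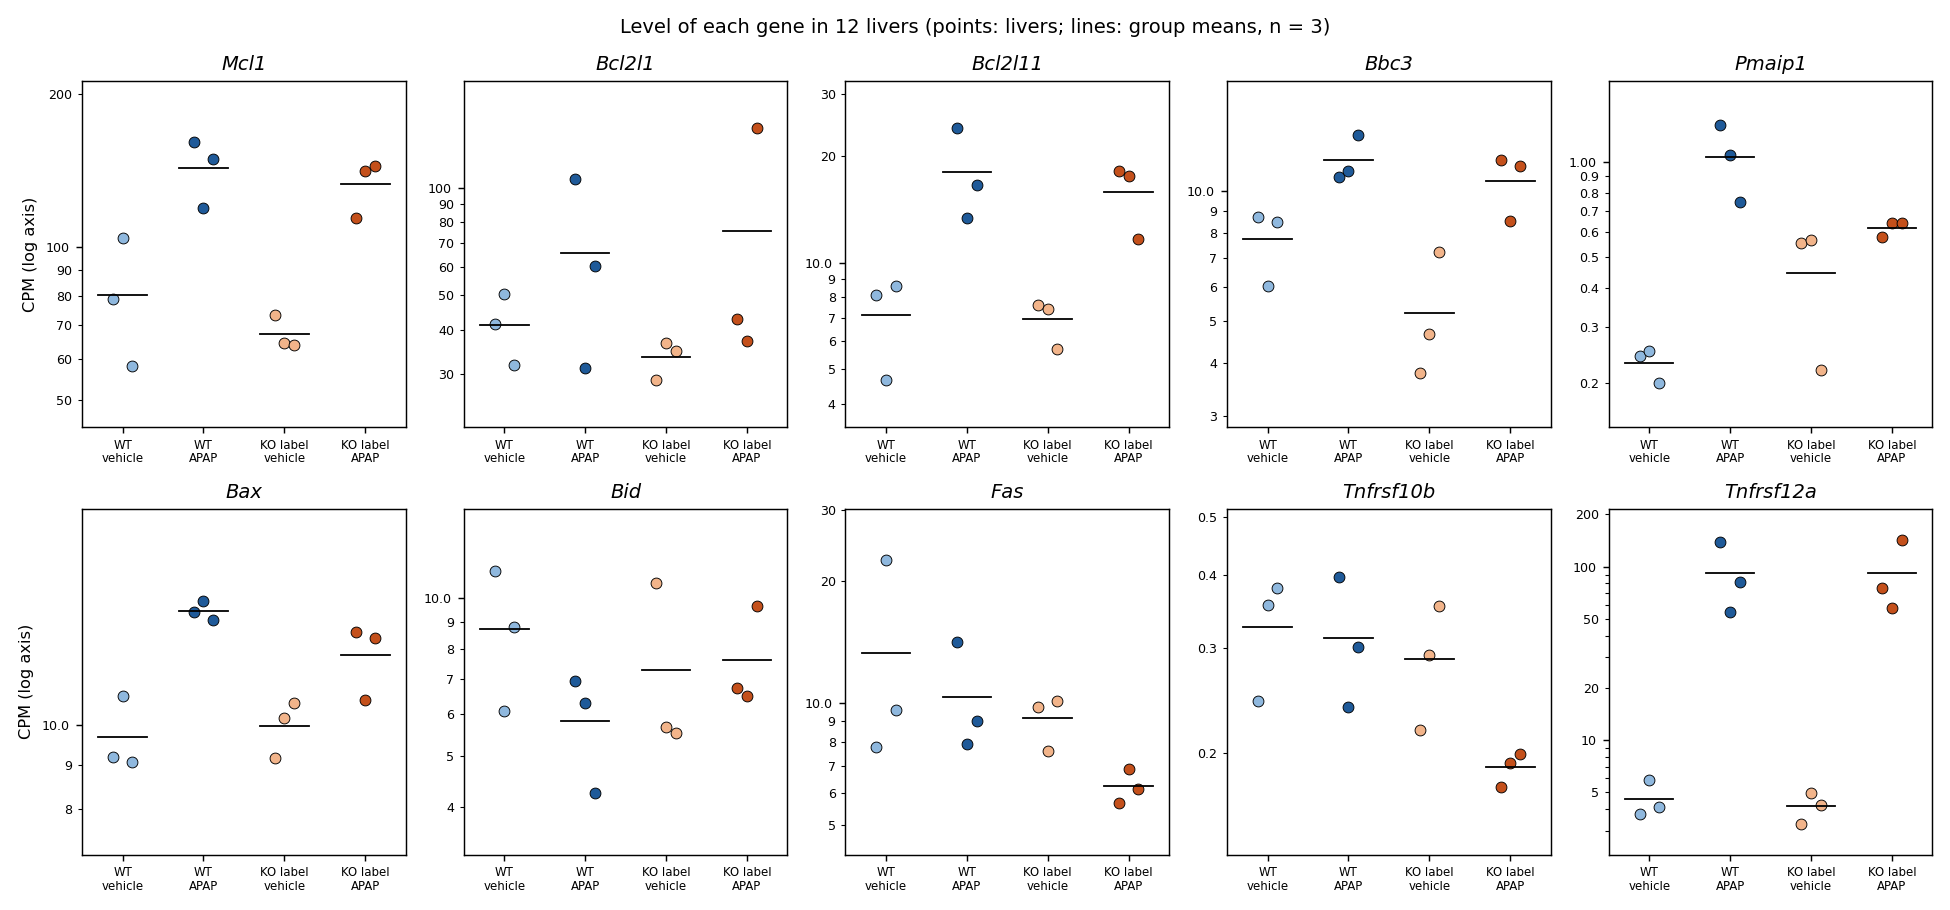
Level of each of the 10 genes in the 12 livers, in CPM on a log axis. Points are livers and lines are group means (n = 3); Tnfrsf12a lies at 3.29 to 5.91 CPM with vehicle and 54.4 to 143 CPM after APAP, and Tnfrsf10b lies below 0.4 CPM in every liver.

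The question of what APAP did was put to WT livers, to livers under the KO label, and to both together with the label as a term. All 10 genes passed the filter on low counts in each comparison. Over both labels (6 against 6 livers), Mcl1, Bcl2l11, Bbc3, Pmaip1, Bax and Tnfrsf12a rose, 6 of the 10 at an adjusted p under 0.05 by edgeR's quasi-likelihood test, and no member fell. Among the 16509 genes tested, 25.4% were called in either direction and 14.0% were called higher. The median log2 fold change of the 10 was 0.86, against 0.01 for all genes tested. In WT alone (3 against 3), 2 of the 10 were called, Pmaip1 and Tnfrsf12a, where 2.05% of 15693 genes were called and 1.62% were called higher. Under the KO label, 5 of the 10 were called, with Mcl1, Bcl2l11, Bbc3 and Tnfrsf12a higher and Fas lower, where 22.6% of 15665 genes were called and 13.0% were called higher. The 2 comparisons have separate controls, and passing the threshold in 1 and not in the other is not a difference between them, which is tested further on. In whole tissue, a lower level from fewer cells of a type and from less RNA per cell cannot be told apart.

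**Figure D2:**
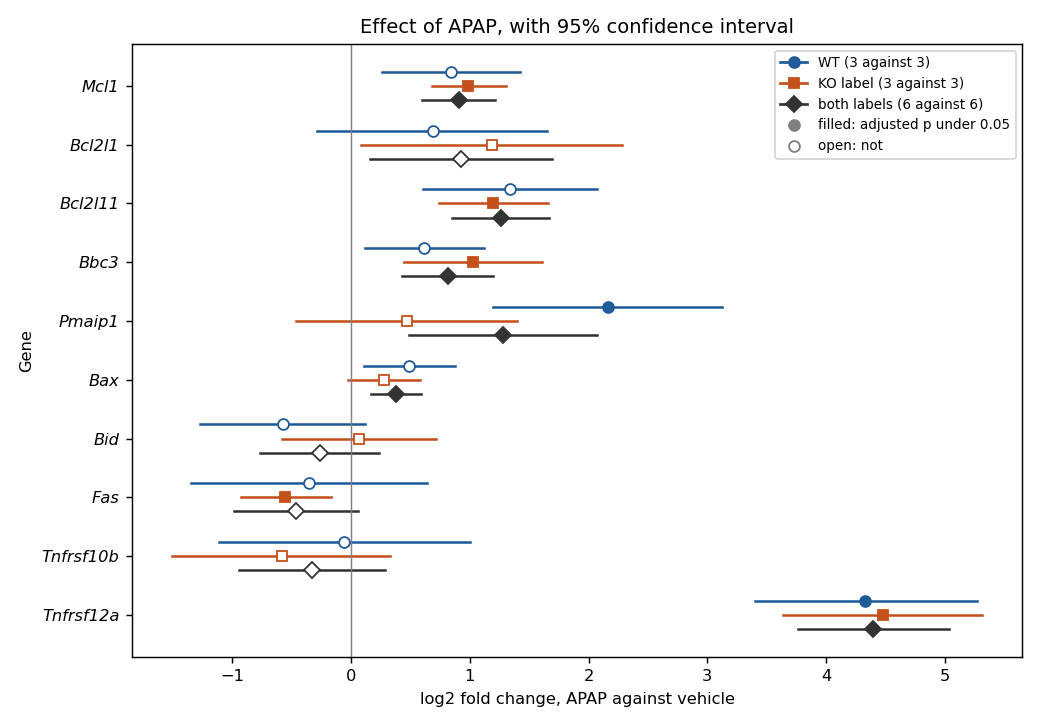
Log2 fold change of each of the 10 genes after APAP, with its unadjusted 95% confidence interval, in WT livers, in livers labelled KO and over both labels; filled symbols mark an adjusted p under 0.05. The intervals of Tnfrsf12a lie to the right of all others, from 3.40 to 5.27 in WT and from 3.64 to 5.31 under the KO label.

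Tnfrsf12a, which encodes the TWEAK receptor FN14, changed most among the 10. In WT livers it stood at 3.72, 5.91 and 4.09 CPM with vehicle and at 139, 54.4 and 81.6 CPM after APAP. Livers labelled KO had 3.29, 4.96 and 4.24 CPM with vehicle and 75.2, 58.0 and 143 CPM after APAP. Every APAP liver lay above every vehicle liver, and the KO label did not separate the livers within either treatment. The fitted log2 fold change was 4.33 ± 0.40 (SE, adjusted p = 0.00659) in WT, 4.48 ± 0.36 (adjusted p = 3.02e-04) under the KO label and 4.39 ± 0.29 over both, which is 21.0-fold (adjusted p = 1.12e-06). Without WT APAP liver 1 and WT vehicle liver 2 the value over both labels was 4.34. Its ligand gene Tnfsf12 (TWEAK) went the other way, by -0.53 ± 0.16 (adjusted p = 0.0251), at 4.67 to 7.25 CPM with vehicle and 2.96 to 5.10 CPM after APAP, so that receptor and ligand transcripts moved in opposite directions over both labels.

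The promoter window of Tnfrsf12a is shown because this gene carried the largest change of the set. RefSeq windows run from 250 bases before to 50 bases after a transcript start. For 8 of the 10 genes at least 1 window was searched, with 13 windows in all. No window of Pmaip1 or Tnfrsf10b is reported here, so statements on windows of the set leave these genes out. The window is printed 5′ to 3′ on the minus strand, chr17:23677400-23677699 of GRCm38.p6, with GC boxes (GGGCGG on either strand) in capitals.
Tnfrsf12a: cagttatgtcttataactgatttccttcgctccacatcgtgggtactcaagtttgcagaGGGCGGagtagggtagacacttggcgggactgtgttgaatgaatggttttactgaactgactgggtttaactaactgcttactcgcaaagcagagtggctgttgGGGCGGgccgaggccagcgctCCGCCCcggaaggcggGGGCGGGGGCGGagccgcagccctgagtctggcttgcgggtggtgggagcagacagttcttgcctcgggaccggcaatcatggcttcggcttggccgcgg
It holds 5 GC boxes and none of the other motifs searched on both strands, which were the AP-1 motif TGACTCA, the cAMP response element TGACGTCA, the C/EBP-ATF motif TGATGNAAT, the FOXO motif GTAAACA and the p53 half-site. A GC box was in 35.7% of all 32851 RefSeq windows, and 10 of the 13 windows of the set held 1 or more. The AP-1 motif was in 5.2% of all windows, and in the set it was in the window of Fas alone. The cAMP response element (1.79% of all windows) and the C/EBP-ATF motif (0.965%) were in no window of the set.

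Among the prosurvival genes, Mcl1 rose and Bcl2l1 did not pass the test. Mcl1 was at 79.0, 104 and 58.1 CPM in WT vehicle livers and at 161, 119 and 149 CPM after APAP. In livers labelled KO it was at 73.3, 64.6 and 63.9 CPM with vehicle and 114, 141 and 144 CPM after APAP. The 6 APAP livers lay above the 6 vehicle livers without overlap, although WT vehicle liver 2 came close to the lowest of them. The log2 fold change was 0.91 ± 0.14 over both labels (adjusted p = 6.46e-04) and 0.99 ± 0.14 under the KO label (adjusted p = 0.00281). In WT alone it was 0.84 ± 0.25 and did not pass (adjusted p = 0.135), although DESeq2 called it there (adjusted p = 0.0422).

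Bcl2l1, the gene of BCL-XL, was at 41.6, 50.5 and 31.9 CPM in WT vehicle livers and at 106, 31.3 and 60.4 CPM after APAP. The livers labelled KO had 29.0, 36.8 and 34.8 CPM with vehicle and 42.8, 37.2 and 147 CPM after APAP. A single liver of each APAP group was well above the rest of its group, and the lowest APAP liver was within the vehicle range. The log2 fold change over both labels was 0.93 ± 0.35 (adjusted p = 0.0736), and without KO APAP liver 3 it was 0.50 (adjusted p = 0.211). It was called by DESeq2 (adjusted p = 0.0270) and without WT APAP liver 2 (adjusted p = 0.0253). KO APAP liver 3 was also the highest of the 12 livers for Tnfrsf12a and for the TNF receptor gene Tnfrsf1a (173 CPM).

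As TPM, Mcl1, Bcl2l1 and Bcl2l2 (BCL-W) made up nearly all of the prosurvival transcripts. Mcl1 was 46.9 to 53.4% of the summed TPM of 8 prosurvival genes in the 6 vehicle livers. After APAP its share was 53.0, 66.0 and 61.5% in WT and 61.2, 67.5 and 43.1% under the KO label, the last in the liver where Bcl2l1 reached 49.5%. The share of Bcl2l2 was 10.9 to 20.6% with vehicle and 3.46 to 10.6% after APAP. The sum itself was 52.1 to 82.9 TPM with vehicle and 86.9 to 182 TPM after APAP, with no overlap between treatments. These shares are descriptions and were not tested.

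**Figure D3:**
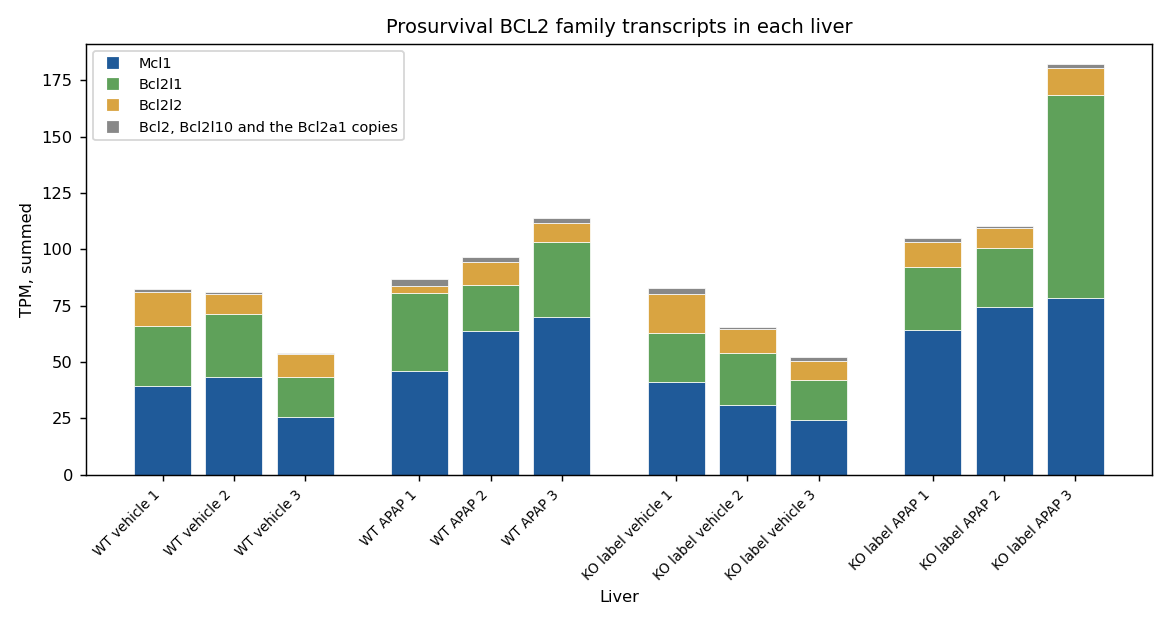
Summed TPM of 8 prosurvival BCL2 family genes in each of the 12 livers, stacked by gene. Bars reach 52.1 to 82.9 TPM with vehicle and 86.9 to 182 TPM after APAP, and KO APAP liver 3 is the tallest, with Bcl2l1 at 90.1 TPM.

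Of the BH3-only genes, Bcl2l11 and Bbc3 rose. Bcl2l11, which encodes BIM, a binder of all prosurvival members, was at 8.13, 4.67 and 8.62 CPM in WT vehicle livers and at 24.0, 13.4 and 16.6 CPM after APAP. In the groups labelled KO it was at 7.61, 7.42 and 5.72 CPM with vehicle and 18.1, 17.6 and 11.7 CPM after APAP. No APAP liver overlapped a vehicle liver. The log2 fold change was 1.26 ± 0.19 over both labels (adjusted p = 5.49e-04) and 1.20 ± 0.20 under the KO label (adjusted p = 0.00542), and in WT alone it was 1.34 ± 0.31 and did not pass (adjusted p = 0.0782), although DESeq2 called it there (adjusted p = 0.00341).

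Bbc3, which encodes PUMA, was at 8.70, 6.02 and 8.46 CPM in WT vehicle livers and at 10.8, 11.1 and 13.5 CPM after APAP. The KO groups had 3.78, 4.67 and 7.20 CPM with vehicle and 11.8, 8.51 and 11.4 CPM after APAP. In CPM the treatments did not overlap within either label, but the lowest APAP liver under the KO label lay below the highest WT vehicle liver. In TPM the WT groups overlapped, with WT APAP liver 1 at 5.55 and WT vehicle livers 1 and 3 at 7.60 and 6.69. The log2 fold change over both labels was 0.82 ± 0.18 (adjusted p = 0.00495), and it was 1.03 ± 0.25 under the KO label (adjusted p = 0.0222) and 0.62 ± 0.21 in WT (adjusted p = 0.184). The call in the KO groups was kept in 2 of 6 fits that left out 1 liver, with adjusted p up to 0.0837. Bcl2l11 and Bbc3 together made up 15.6 to 26.3% of the summed TPM of 8 BH3-only genes with vehicle and 33.2 to 43.8% after APAP. The sum of the 8 genes itself overlapped between treatments, at 26.8 to 47.5 TPM with vehicle and 24.2 to 48.4 TPM after APAP. This share is of genes named because they rose, is a description and was not tested.

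Windows of these genes are shown because Bcl2l11 and Bbc3 rose together and both are known targets of FOXO factors, and the window of Bax because that gene also rose and is a known p53 target. Each is from GRCm38.p6 and is printed 5′ to 3′ on the strand of its gene, with matches to the motifs named above in capitals. The first of 2 windows of Bcl2l11 is chr2:128125788-128126087 on the plus strand, the second of 3 windows of Bbc3 is chr7:16310011-16310310 on the plus strand, and that of Bax is chr7:45466849-45467148 on the minus strand.
Bcl2l11: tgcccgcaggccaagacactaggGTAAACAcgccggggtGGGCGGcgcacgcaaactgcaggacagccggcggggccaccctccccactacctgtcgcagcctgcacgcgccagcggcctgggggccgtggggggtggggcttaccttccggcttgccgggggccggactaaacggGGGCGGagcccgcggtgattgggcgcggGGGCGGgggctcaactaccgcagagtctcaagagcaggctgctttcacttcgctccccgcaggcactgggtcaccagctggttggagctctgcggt
Bbc3: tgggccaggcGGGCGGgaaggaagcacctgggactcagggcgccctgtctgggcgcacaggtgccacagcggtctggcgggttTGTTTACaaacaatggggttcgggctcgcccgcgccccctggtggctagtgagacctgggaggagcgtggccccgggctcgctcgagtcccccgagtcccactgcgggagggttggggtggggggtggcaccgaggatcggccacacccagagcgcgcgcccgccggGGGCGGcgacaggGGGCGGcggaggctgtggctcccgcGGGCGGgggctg
Bax: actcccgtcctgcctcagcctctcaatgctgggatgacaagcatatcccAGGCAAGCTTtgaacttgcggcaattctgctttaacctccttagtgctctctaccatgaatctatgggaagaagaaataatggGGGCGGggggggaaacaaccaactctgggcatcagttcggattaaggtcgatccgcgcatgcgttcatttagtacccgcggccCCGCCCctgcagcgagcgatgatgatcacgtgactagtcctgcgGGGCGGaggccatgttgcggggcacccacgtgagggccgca
The FOXO motif starts 227 bases before the start site in the Bcl2l11 window and 167 bases before it in the Bbc3 window, where it is on the other strand, and it was in 3.65% of all RefSeq windows. The Bcl2l11 and Bbc3 windows printed were chosen for that match and are the 2 of the 13 windows of the set that hold the motif, which is in neither the other window of Bcl2l11 nor the other two of Bbc3. The p53 half-site in the Bax window starts 201 bases before the start site and is the 1 match in the 13 windows, and 8.36% of all windows held a match. The remaining capitals are GC boxes. No motif overlapped another kind of motif in these windows.

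Pmaip1 and Bid, the remaining BH3-only genes of the set, behaved differently from each other. Pmaip1, which encodes NOXA, an antagonist of MCL1, was counted 13, 12 and 10 times in WT vehicle livers (0.244, 0.252 and 0.200 CPM) and 66, 79 and 47 times after APAP (1.31, 1.05 and 0.747 CPM). Livers labelled KO had counts of 33, 29 and 10 with vehicle (0.554, 0.565 and 0.221 CPM) and 33, 40 and 45 after APAP (0.577, 0.639 and 0.640 CPM). The WT groups were well separated, whereas under the KO label the groups nearly touched. The log2 fold change was 2.16 ± 0.41 in WT (adjusted p = 0.0481), 0.47 ± 0.41 under the KO label (adjusted p = 0.437) and 1.28 ± 0.37 over both (adjusted p = 0.0216). The WT call was lost in each of the 6 fits that left out 1 liver (adjusted p = 0.0722 to 0.187). The call over both labels was lost without WT vehicle liver 1 (adjusted p = 0.0593) or WT vehicle liver 3 (adjusted p = 0.0601).

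Bid, whose product links caspase-8 to mitochondria, was at 11.3, 6.08 and 8.80 CPM in WT vehicle livers and at 6.95, 6.30 and 4.25 CPM after APAP. For livers labelled KO it was at 10.7, 5.68 and 5.52 CPM with vehicle and 6.73, 6.52 and 9.65 CPM after APAP. The groups overlapped under both labels, and the log2 fold change over both was -0.26 ± 0.23 (95% confidence interval -0.76 to 0.24, adjusted p = 0.458).

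Bax, the effector of the set, rose by a small amount. It was at 9.20, 10.8 and 9.06 CPM in WT vehicle livers and at 13.5, 13.9 and 13.2 CPM after APAP. With the KO label it was at 9.17, 10.2 and 10.6 CPM with vehicle and 12.8, 10.7 and 12.6 CPM after APAP. The treatments did not overlap within either label, although WT vehicle liver 2 was above KO APAP liver 2. The log2 fold change over both labels was 0.38 ± 0.10, or 1.30-fold (adjusted p = 0.0117). Neither label passed alone, with 0.49 ± 0.17 in WT (adjusted p = 0.176) and 0.28 ± 0.13 under the KO label (adjusted p = 0.156). In the authors' TPM the value of WT APAP liver 1, 15.5, was the lowest of the 12 livers, while its CPM scaled by edgeR was among the highest; the scaling factor of that library was 0.750, against 0.892 to 1.13 in the others.

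Neither death domain receptor of the set was called higher. Fas was at 7.79, 22.5 and 9.60 CPM in WT vehicle livers and at 14.1, 7.91 and 9.02 CPM after APAP. Under the KO label it was at 9.76, 7.61 and 10.1 CPM with vehicle and 5.66, 6.86 and 6.15 CPM after APAP. The KO groups did not overlap, and in WT a single vehicle liver was far above all others. Under the KO label Fas fell by 0.55 on the log2 scale (SE 0.16, adjusted p = 0.0440), and this call was kept in 2 of 6 fits that left out 1 liver (adjusted p up to 0.125). In the same comparison 7 of 7 Kupffer cell and monocyte markers were lower (median -0.58 on the log2 scale) with 1 called (Ccr2, -1.50 ± 0.36, adjusted p = 0.0211), and 4 of 4 lymphocyte markers tested were lower, with a median of -0.70 and 1 called (Cd8a, -2.11 ± 0.64, adjusted p = 0.0473). The summed TPM of the 7 Kupffer cell and monocyte markers was 102 to 203 with vehicle and 89.1 to 133 after APAP under the KO label, and that of 6 lymphocyte markers was 1.19 to 2.41 and 1.16 to 1.36. Other lists went other ways under the KO label. All 4 neutrophil markers tested (median 1.90) and all 4 cholangiocyte markers (0.48) were higher, with 1 called in each list. Of 5 stellate cell markers 4 were lower, with 1 called. Of 5 sinusoidal endothelial cell markers 3 were lower, with 1 called higher and 1 called lower. No hepatocyte or platelet and erythroid marker was called. The part of these cells in the level of Fas was not tested. In WT the log2 fold change was -0.35 ± 0.42 (adjusted p = 0.702), and it was 0.25 without WT vehicle liver 2. That liver, whose neutrophil marker sum is given above, was also above the other vehicle livers for Tnfrsf1a (168 CPM, against 48.2 to 56.3) and Jun (45.6 CPM, against 5.51 to 18.6), and the part of these in its Fas level was not tested. Tnfrsf10b was counted 10 to 20 times in each of the 12 livers, and its log2 fold change over both labels was -0.33 ± 0.29 (95% confidence interval -0.94 to 0.29, adjusted p = 0.448).

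Ranges of CPM that did not overlap were common among all genes as well. Between treatments, 6 of the 10 genes did not overlap in WT, where 24.9% of genes tested did not overlap in either direction. Under the KO label 9 of the 10 did not overlap, against 42.8% of genes tested, and over both labels 4 of the 10, Mcl1, Bcl2l11, Pmaip1 and Tnfrsf12a, against 12.5%.

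The next question was whether the livers labelled KO differed from WT livers. After APAP, 0 of the 10 genes passed at an adjusted p under 0.05 by edgeR, DESeq2 or limma, and 1, Fas, had an unadjusted p under 0.05. In that comparison 0.0309% of 16174 genes were called. Fas was at 14.1, 7.91 and 9.02 CPM in WT and at 5.66, 6.86 and 6.15 CPM under the KO label, a log2 difference of -0.75 ± 0.26 (unadjusted p = 0.0189, adjusted p = 0.958). The highest of these was WT APAP liver 1, and without it the log2 difference was -0.45. In TPM that liver did not stand out, with Fas at 9.65, 9.19 and 9.76 in WT and 7.80 to 8.19 under the KO label. Beside Fas, 7 of 7 Kupffer cell and monocyte markers were lower under the KO label, with a median of -0.54. So were 5 of 5 neutrophil markers tested (median -4.01) and 5 of 5 platelet and erythroid markers (-2.71). All 5 hepatocyte (-0.42) and all 5 sinusoidal endothelial cell markers (-0.23) were lower too. In summed TPM the hepatocyte markers overlapped between labels, at 70807 to 87903 in WT and 77255 to 80903 under the KO label. So did the endothelial markers (78.3 to 130 and 85.8 to 134) and the Kupffer cell and monocyte markers (66.5 to 188 and 89.1 to 133). The neutrophil sums did not overlap, as given further on. Lymphocyte, stellate cell and cholangiocyte markers went both ways. None of these markers was called, and the part of these cells was not tested. Pmaip1 had a log2 difference of -0.75 ± 0.36 (adjusted p = 0.958), with all WT livers above all KO livers. Ranges of CPM were separate for 4 of the 10, Pmaip1, Bax, Fas and Tnfrsf10b, each lower under the KO label, against 8.73% of genes tested in either direction. In TPM those of Bax overlapped, at 15.5 to 29.9 in WT and 22.6 to 29.0 under the KO label. For Tnfrsf12a the log2 difference was -0.01, with a 95% confidence interval from -0.98 to 0.96, so a difference of up to about that size in either direction was within the error. The interval for Mcl1 was narrower, from -0.56 to 0.33.

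With vehicle, 0 of the 10 genes passed by any of these tools or had an unadjusted p under 0.05, and 0.0262% of 15262 genes were called. The widest gap was that of Pmaip1, at 0.95 ± 0.46 (adjusted p = 0.694), on counts of 10 to 33. None of the 10 had separate ranges, where 14.0% of genes tested did. Bbc3 had a log2 difference of -0.57 ± 0.27 (adjusted p = 0.680).

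**Figure D4:**
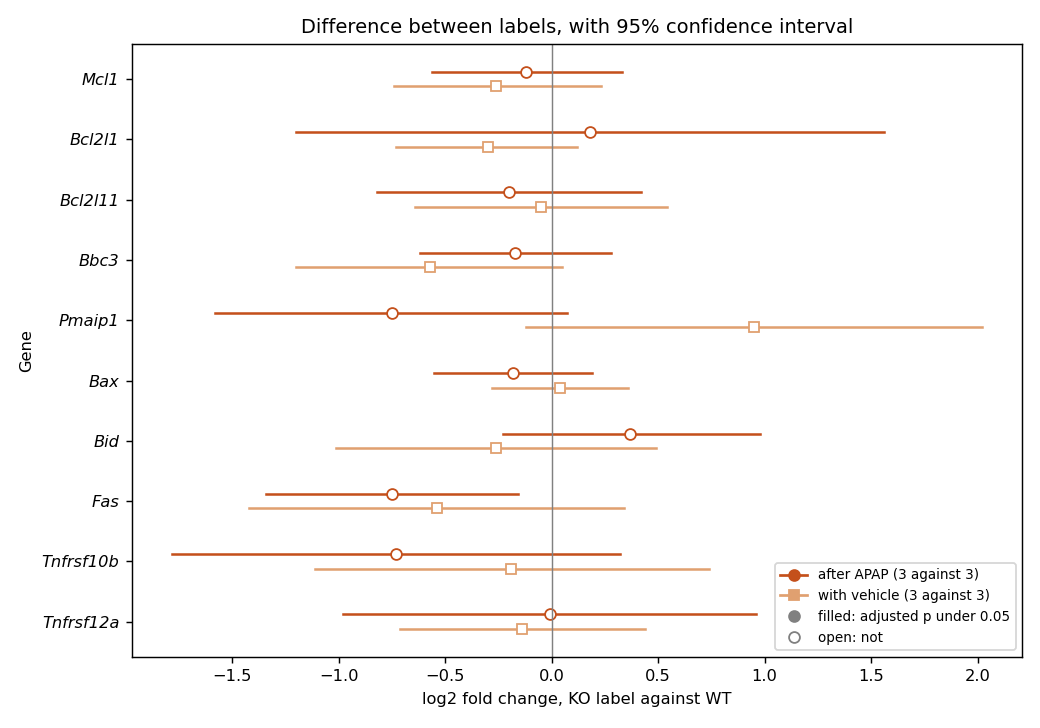
Log2 difference of each of the 10 genes between livers labelled KO and WT, after APAP and with vehicle, with unadjusted 95% confidence intervals. All symbols are open, since no adjusted p was under 0.05; the interval of Fas after APAP (-1.34 to -0.16) does not cross 0, and that of Tnfrsf12a after APAP runs from -0.98 to 0.96.

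Whether APAP acted differently under the 2 labels was tested as an interaction over the 12 livers. By edgeR, 0 of the 10 genes and 0 of 16509 genes in all (0%) passed, while 848 genes had an unadjusted p under 0.05, and DESeq2 called 9 genes and limma 0. The 1 gene of the set with an unadjusted p under 0.05 was Pmaip1, whose APAP effect was smaller by 1.69 on the log2 scale under the KO label (interaction -1.69 ± 0.56, unadjusted p = 0.0108, adjusted p = 0.872). The interaction was also below 0 for 7 of 7 Kupffer cell and monocyte markers (median -1.21) and 5 of 5 lymphocyte markers tested (median -2.61). All hepatocyte (median -0.30), sinusoidal endothelial (-0.30) and stellate cell markers (-0.54) were below 0 too. So were 4 of 4 platelet and erythroid markers tested (-2.54). Neutrophil markers (3 of 5 below 0) and cholangiocyte markers (2 of 4) went both ways. These medians are of counts scaled by edgeR, where the factor of WT APAP liver 1 was 0.750. None of these markers was called, and the part of these cells was not tested. The interaction of Tnfrsf12a was 0.14 ± 0.53 and that of Mcl1 was 0.15 ± 0.29.

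The rest of the pathway was described with 7 further lists of genes over both labels, and up to 3 genes of each are named by smallest p. The counts stand beside the 25.4% of all 16509 genes called over both labels, 14.0% as higher, and with lists this short nothing particular to a list is read from them. Among 6 other prosurvival genes, 5 were tested and 0 passed, with 2 at an unadjusted p under 0.05: Bcl2l2 at -0.38 ± 0.14 (adjusted p = 0.0588) and Bcl2a1a, an A1 gene with near-identical copies, at 1.09 ± 0.49 (adjusted p = 0.124). Among 8 other effector and BH3-only genes, 1 rose and 1 fell. Bmf, a BH3-only gene, fell from 4.02 to 14.2 CPM with vehicle to 1.31 to 7.76 CPM after APAP (log2 fold change -1.25 ± 0.40, adjusted p = 0.0370), and Hrk, another BH3-only gene, rose by 3.26 ± 0.95 (adjusted p = 0.0231) on levels from 0 to 1.17 CPM. Bnip3, a mitophagy receptor gene, was at -0.47 ± 0.17 (adjusted p = 0.0575).

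The receptor side was covered by the lists of ligands, other receptors and adaptors, beside the same 25.4% of all genes called over both labels. Of 6 death ligand genes, 4 were tested and 2 fell, Tnfsf12 and Tnfsf10, the gene of TRAIL (-1.26 ± 0.38, adjusted p = 0.0269), and Fasl was among the genes with too few counts to test. Of 7 other receptors, 1 rose, the decoy receptor gene Tnfrsf23 (1.53 ± 0.32, adjusted p = 0.00438), while Tnfrsf11b was at 0.76 ± 0.28 (adjusted p = 0.0666) and Tnfrsf1a at 0.79 ± 0.31 (adjusted p = 0.0803). Of 8 adaptors and related genes, 1 rose, Traf2, an adaptor of TNF receptors (0.33 ± 0.10, adjusted p = 0.0330). In the same list, the necroptosis gene Mlkl was at 0.58 ± 0.20 (adjusted p = 0.0532) and the caspase-8 inhibitor gene Cflar at -0.40 ± 0.15 (adjusted p = 0.0707).

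Among 11 genes of the apoptosome, the executioner caspases and their inhibitors, 3 fell and 0 rose, a share close to the 25.4% called among all genes. Birc5 (survivin), a gene of dividing cells, fell by 2.07 (SE 0.28, adjusted p = 2.38e-04), and Xiap, the gene of a caspase inhibitor, fell by 0.56 (SE 0.14, adjusted p = 0.00965). Casp9, the caspase gene of the apoptosome, fell by 0.49 (SE 0.13, adjusted p = 0.0170). The list held both a caspase and inhibitors of caspases among the genes that fell.

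Of 10 transcription factor genes known to act on members of the set, 9 were tested and 6 rose, where 14.0% of all genes tested were called higher. Ddit3, the gene of the stress factor CHOP, rose by 4.94 ± 0.23 (adjusted p = 8.42e-08) and was at 5.63 to 9.60 CPM with vehicle and 110 to 300 CPM after APAP. Jun, an AP-1 subunit gene, rose by 6.71 ± 0.52 (adjusted p = 3.69e-06), and Atf4, which acts with CHOP, rose by 1.32 ± 0.24 (adjusted p = 0.00158).

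**Figure D5:**
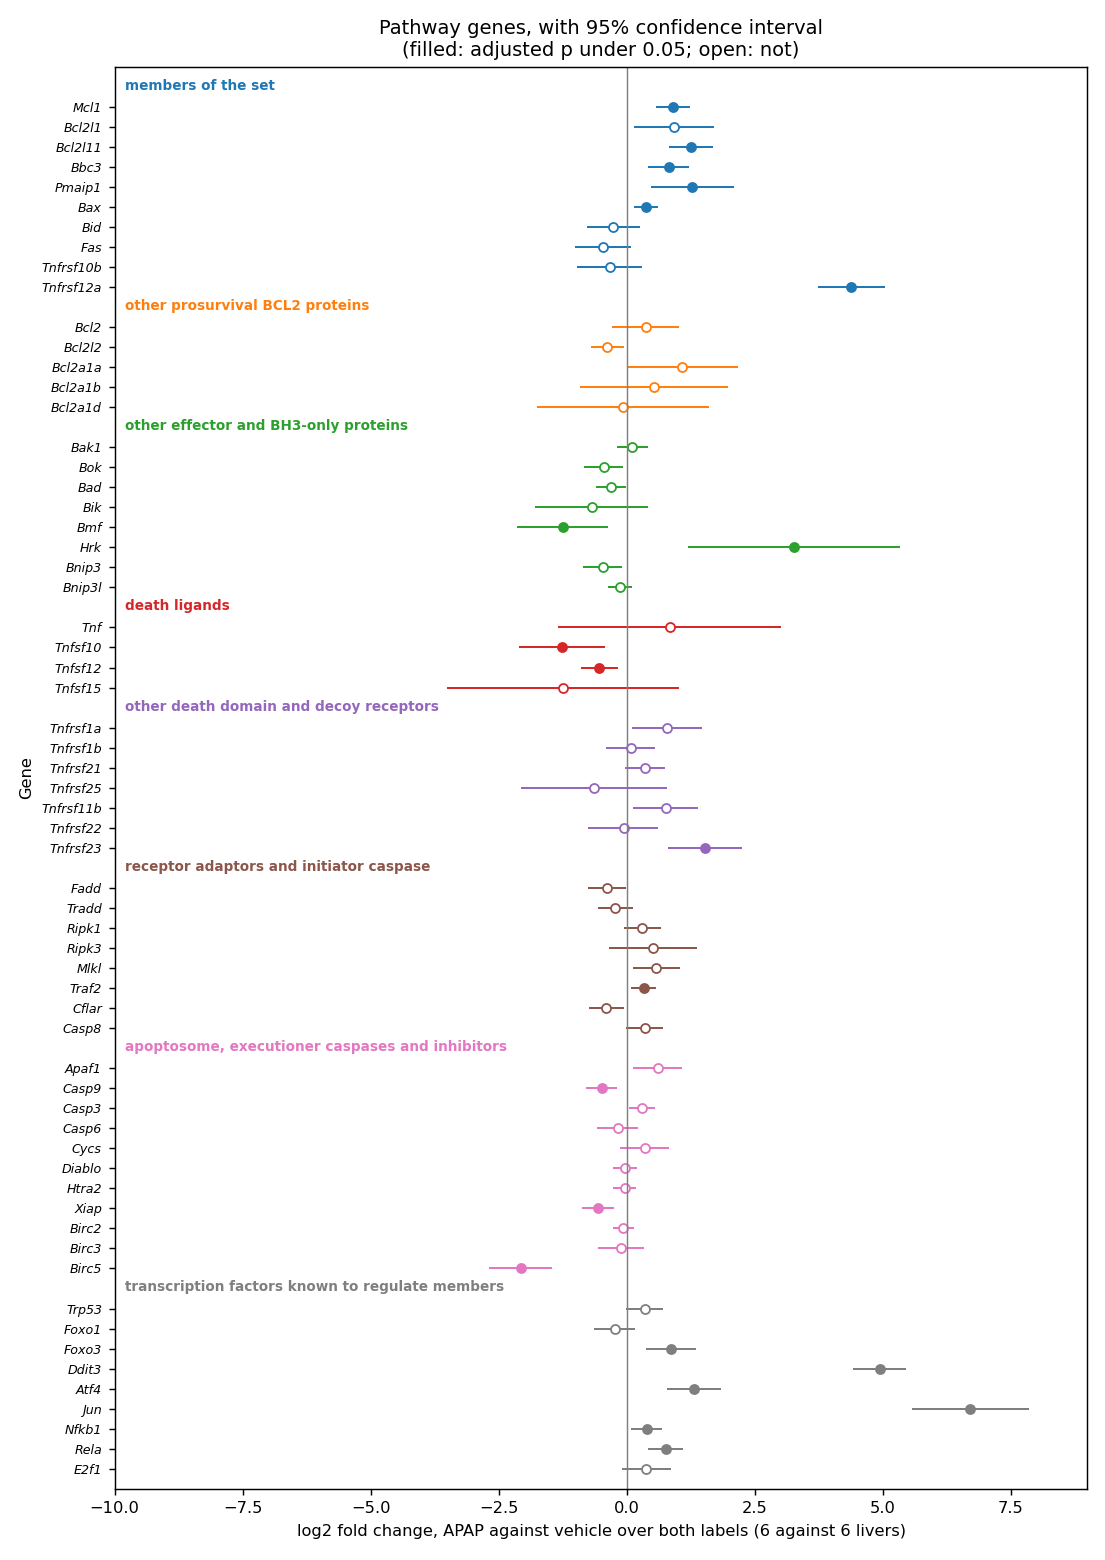
Log2 fold change after APAP over both labels (6 against 6 livers) with its unadjusted 95% confidence interval for the genes tested in the set of 10 and in 7 further lists; filled symbols mark an adjusted p under 0.05. The largest values are those of Jun (6.71), Ddit3 (4.94) and Tnfrsf12a (4.39), and the lowest is that of Birc5 (-2.07).

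For each of the 6 genes called over both labels, the most similar other gene was sought by Pearson's r of log2 CPM over the 12 livers, among 10911 or 10912 genes with a mean log2 CPM of at least 1, as a description with no test, since all such genes share the treatment, the libraries and their depth. It was Gsta1, a glutathione transferase gene, for Tnfrsf12a (r = 0.99) and Plk3, a stress-responsive kinase gene, for Mcl1 (r = 0.97). For Bax it was Pdgfra (r = 0.96), for Bcl2l11 Gfod1 (r = 0.95), for Bbc3 Zfp954 (r = 0.95) and for Pmaip1 Rn7s1 (r = 0.91). Within the set, Mcl1 and Tnfrsf12a had r = 0.92, and Fas and Tnfrsf10b, neither of which passed the test over both labels, had r = 0.75.

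Over both labels, some markers of other cells moved with treatment. The summed TPM of 4 cholangiocyte markers was 1.49 to 3.52 with vehicle and 8.81 to 14.8 after APAP, and 2 of the 4 rose, Sox9 (3.20 ± 0.32, adjusted p = 2.59e-05) and Epcam (0.82 ± 0.23, adjusted p = 0.0209). Most of that sum was Sox9 (0.529 to 2.16 TPM with vehicle and 7.28 to 12.5 TPM after APAP). Krt19 and Krt7 were below 0.7 TPM in every liver and did not pass by edgeR (adjusted p = 0.424 and 0.639). All 4 markers were higher after APAP (median log2 fold change 0.64), and whether the number of these cells changed was not tested. The neutrophil sum was 0.828 to 39.6 TPM with vehicle and 1.27 to 234 TPM after APAP. All 5 neutrophil markers tested were higher after APAP (median log2 fold change 2.79). Each of the 5 had an unadjusted p under 0.05 by edgeR, and 1 was called (Cxcr2). Mpo was at 0 in every liver. The neutrophil sums of APAP livers labelled WT (25.8 to 234 TPM) lay above those labelled KO (1.27 to 18.5 TPM). The sums of 5 platelet and erythroid markers, 288 to 588 TPM with vehicle and 301 to 9494 TPM after APAP, overlapped apart from WT APAP liver 1, although Pf4 and Ppbp rose. That liver had 325 counts of Pf4 and 268 of Ppbp, against at most 35 and 24 in any other liver. Of 5 sinusoidal endothelial cell markers 2 rose, Lyve1 and Pecam1, and 1 of 5 stellate cell markers fell, Lrat. No hepatocyte marker (5), Kupffer cell and monocyte marker (7) or lymphocyte marker (5 tested of 6) passed over both labels; the values under the KO label alone are given with Fas. The part of these cells in the levels of the 10 genes was not tested. Without WT APAP liver 1 and WT vehicle liver 2, Mcl1, Bcl2l11, Bbc3, Pmaip1, Bax and Tnfrsf12a still passed over both labels, with Pmaip1 at an adjusted p of 0.0498, and in WT alone Tnfrsf12a was the 1 gene of the 10 that passed.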

How the data were processed

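RNA from 12 mouse livers (4 groups of 3) was made into poly-A, strand-specific paired-end libraries. According to the submitters' processing notes, the tools named were FastQC 0.11.7, Trimmomatic 0.38, HISAT2 2.1.0, Bowtie2 2.3.4.1 and StringTie 2.1.3b, with mouse build mm10. The authors deposited 1 table with read counts per gene, and TPM and FPKM values per gene for each liver; all 36 value columns were assigned to a liver, and the deposited FPKM values were not used. Here the counts were scaled by TMM and tested with edgeR 4.0.16 (glmQLFit, glmQLFTest; R 4.3.3) after filterByExpr, with Benjamini-Hochberg adjustment over all genes tested; an adjusted p under 0.05 was a call. SE is the fold change over the root of F. CPM printed are TMM-scaled over 12 livers, each pair being fitted on its own 6. Alternatives used DESeq2 1.42.0, limma 3.58.1 on quantile-normalized log2(TPM + 1), other filters, the replicate block and left-out livers. Promoters are RefSeq's. A gene of the caspase list is not reported here. The edgeR fits of APAP against vehicle were tested on simulated counts. The label comparisons, the interaction, the other tools and the promoter search were not. The members and lists were chosen with earlier results of these data known; named genes were the 10 members, up to 3 of each further list by smallest p over both labels, and the most similar gene (mean log2 CPM of at least 1) of each member called; cell markers, and Tnfrsf1a and Jun beside single livers, were named after their values were seen. Nothing says that livers were processed in batches, and p-values measure the spread between mice.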

Additional observations from a re-analysis of the deposited data

How the results depend on the processing

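Across the alternatives, Tnfrsf12a was called in each APAP comparison under every setting run. In WT, the number of the 10 genes called was 2, but 4 by DESeq2, 5 with all 12 livers in 1 fit, and 1 (Tnfrsf12a) with no filter, with limma, with the replicate block and without both WT APAP liver 1 and WT vehicle liver 2, an alternative chosen after seeing the data; leaving out single livers gave 1 each time. All genes called there numbered 322, but 1413 by DESeq2, 1523 with all 12 livers, 62 with the replicate block and 631 without both livers; leaving out single livers gave 41 (WT vehicle liver 3), 43 (WT vehicle liver 1), 68 (WT APAP liver 3) and up to 442. With the KO label, the count went from 5 to between 3 (without KO APAP liver 1 or 3, or KO vehicle liver 1) and 6 (without KO APAP liver 2), and all genes called, 3538, became 2249 with all 12 livers and 1995 (without KO vehicle liver 2) to 3368 without single livers, with 2071 without KO APAP liver 3. After APAP, the label comparison called 5 genes, but 29 by DESeq2, 1 with at least 10 counts in every liver, 1 with the replicate block, 0 with all 12 livers and 1 (without WT APAP liver 3) to 7 without single livers, with 2 without KO APAP liver 1 or 2. With vehicle it called 4, but 137 by DESeq2, 0 with the replicate block, 0 with all 12 livers and 0 (without KO vehicle liver 2 or 3) to 16 (without KO vehicle liver 1). The interaction called 0 genes, but 9 by DESeq2 and 0 to 2 (without WT vehicle liver 1). The causes were not tested.

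Signs turned only in values that did not pass. Without single livers, or without both, log2 differences ran in WT after APAP against vehicle from -0.65 to 0.25 for Fas and -0.27 to 0.09 for Tnfrsf10b, and with the KO label from -0.13 to 0.48 for Bid. Between labels after APAP they ran from -0.74 to 0.73 for Bcl2l1, -0.38 to 0.07 for Bcl2l11 and -0.47 to 0.44 for Tnfrsf12a, which was also 0.18 with limma and 0.01 with all 12 livers. With vehicle they ran from -0.27 to 0.12 for Bcl2l11, 0.00 to 0.13 for Bax, -0.81 to 0.08 for Fas and -0.28 to 0.10 for Tnfrsf12a. Interactions ran from -0.07 to 0.34 for Mcl1, -0.44 to 1.05 for Bcl2l1, -0.33 to 0.36 for Bcl2l11, -0.81 to 0.12 for Fas and -0.34 to 0.59 for Tnfrsf12a.

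The liver numbers are shared by the groups, but deviations from the group means of livers with the same number correlated at only -0.26 to 0.05, and the labels name no shared litter, so they were not taken to pair the mice. With the replicate block, Pmaip1 in WT (2.13, adjusted p = 0.167) and Fas with the KO label (-0.54, adjusted p = 0.0947) lost their calls. Of the genes called over both labels, 44.3% were higher with limma on quantile-normalized TPM (1944 higher and 2447 lower), against 55.1% with edgeR (2307 and 1880). Depth limits Pmaip1 and Tnfrsf10b, at 10 to 79 and 10 to 20 counts.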
